A study of Homo sapiens with 40 samples.

Results

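The response of PARP1-knockout (PARP1-KO) HEK293A cells to topotecan (Tpc) was examined by comparing the 4 libraries of cells given 50 nM Tpc in 0.1% DMSO with the 4 libraries of cells given 0.1% DMSO alone, 8 of the 40 libraries of the study. The libraries were chosen by their titles. HEK293A is an adherent line derived from human embryonic kidney, and the PARP1-KO cells are 1 clone of it, made with CRISPR/Cas9 and carrying a homozygous deletion within the coding exons of PARP1, a deletion that the DMSO controls carry too. Cells were exposed for 5 to 5.5 h before poly(A) RNA was taken. The fit also held the 12 PARP1-KO libraries from untreated cells, cells given 5 µM of the TDP1 inhibitor OL9-119 in 0.1% DMSO, and cells given 50 nM Tpc with 5 µM OL9-119. Wild-type (WT) cells received 100 nM Tpc, so that genotype and dose cannot be told apart in any comparison between the cell lines. The labels call the 4 libraries of a group biological replicates while the methods of the study call them technical, so p-values measure the spread between these libraries, which may be technical.

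Tpc is a camptothecin derivative that traps topoisomerase 1 (TOP1) on DNA as a covalent cleavage complex. TOP1 relieves the supercoils that form ahead of and behind RNA polymerase II, and trapped complexes stand in the path of transcription as well as of replication forks. PARP1 detects DNA strand breaks and takes part with TDP1, the phosphodiesterase that removes TOP1 remnants from DNA, in the repair of these lesions. Genes with long introns are known to depend on TOP1 for elongation. In cells with intact signalling, DNA breaks also activate checkpoint kinases, p53 and NF-kappa B.

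The libraries held between 9724675 and 18458588 counts, and the levels below are CPM, counts per 1000000 counts of a library after TMM scaling of the library sizes. PARP1 itself was at 30.5 to 46 CPM in the PARP1-KO libraries and at 737 to 887 CPM in the WT libraries, although the genotype field of the labels uses the word knockdown. HEK293 markers, such as KRT8, KRT18 and VIM, summed to 1970 to 2260 CPM with DMSO and 1900 to 2140 CPM with Tpc. The markers of other cells stayed low, with none of them at 0 in all 8 libraries: the 8 leukocyte and red cell markers summed to at most 11.7 CPM, the 6 hepatocyte markers to at most 3.71 CPM and the 8 fibroblast markers to at most 36 CPM.

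A pair of libraries stood apart from their labels, and this touches every result. On the first principal component of the PARP1-KO libraries, which held 34.2% of the variance, the library labelled DMSO replicate 3 was at 3.26 while the other DMSO libraries were between -2.49 and -1.93 and the Tpc libraries between 3.27 and 4.52. The library labelled Tpc+OL9-119 replicate 3 was at -3, against 3.91 to 4.25 for the other 3 of that group. No libraries were repeats of each other, since the lowest chi-square per degree of freedom between any pair of the 8 was 3.65. Main results are therefore given with all 8 libraries and without DMSO replicate 3. Where no fit is named, the change and adjusted p of a gene come from the comparison without DMSO replicate 3. That library was left out with its position known, so p-values without it are not independent evidence.

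With all 8 libraries, no gene passed an adjusted p of 0.01 in edgeR's quasi-likelihood test, 0 of 27009 genes tested (0%), and 2179 genes (8.07%) had an unadjusted p under 0.05. The smallest adjusted p was 0.0113, for RPTOR. At an adjusted p of 0.05, 23 genes were lower and 0 higher (0.0852% of the genes tested). Of these 23, 22 span at least 200 kb of the genome, and the remaining one is PLK1, which spans 12.7 kb. Without DMSO replicate 3, 74 of 26845 genes (0.276%) passed 0.01. Of these differentially expressed genes (DEGs), 66 were lower with Tpc (0.246% of the genes tested) and 8 were higher (0.0298%). The log2 fold changes of the lower genes ran from -1.21 to -0.34, and those of the higher genes from 0.41 to 0.70. All 23 genes below 0.05 with 8 libraries were among the 74. The count without DMSO replicate 3 rests on the PARP1-KO libraries being fitted alone, since 0 genes passed when both genotypes were fitted together with only that library left out, and it ran from 15 without DMSO replicate 2 to 235 without Tpc replicate 2.

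The lower genes were mostly long. Of the 65 with a span in the annotation, 56 (86.2%) spanned at least 200 kb and 16 at least 500 kb, and their median span was 354 kb. Among the 12277 genes with a mean of at least 50 counts, 975 spanned at least 200 kb, and the median span was 34.5 kb. The 8 higher genes spanned 3.98 to 162 kb, with a median of 22.4 kb. The scatter of change against span shows the lower genes gathered at its right end.

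**Figure D1:**
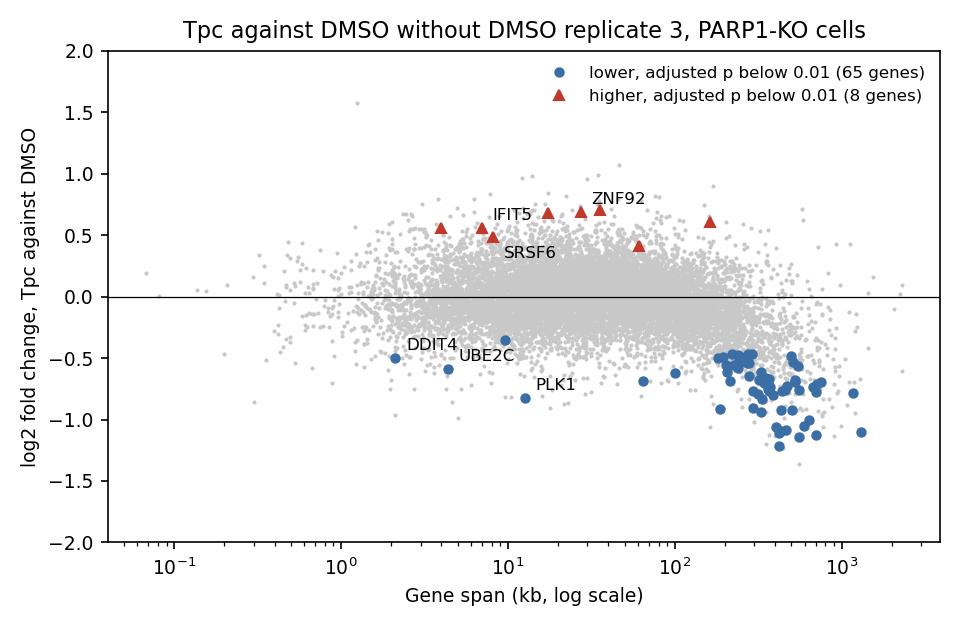
The log2 fold change of each gene, Tpc against DMSO without DMSO replicate 3 in PARP1-KO cells, is plotted against the gene's span in kb on a log axis, for genes with a mean of at least 50 counts (grey). Blue circles are the 65 lower genes with a span and red triangles the 8 higher genes at an adjusted p below 0.01, and 56 of the blue circles lie at 200 kb or more.

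RPTOR, on chromosome 17 from 80544819 to 80966371 in hg38, encodes the Raptor subunit of the mTORC1 kinase complex. Its level was 61.2, 55.7, 29.7 and 48.2 CPM in DMSO replicates 1 to 4, and 20.4, 33.5, 20.8 and 27.2 CPM in the Tpc libraries. DMSO replicate 3 fell inside the Tpc range and the other DMSO libraries lay above every Tpc library. Its log2 fold change was -0.93 with all libraries and -1.11 ± 0.145 (SE) without DMSO replicate 3, with an edgeR adjusted p of 6.23e-06.

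TTC28, which encodes a tetratricopeptide repeat protein and spans 702 kb, was at 53.65, 58.93, 31.1 and 52.83 CPM with DMSO and at 18.44, 32.04, 28.88 and 22.02 CPM with Tpc. Its log2 fold change was -0.96 with all libraries (adjusted p = 0.0148) and -1.12 without DMSO replicate 3 (edgeR adjusted p = 6.3e-05). TRIO, a guanine nucleotide exchange factor that spans 389 kb, was at 174.8, 189.0, 103.9 and 173.5 CPM with DMSO and at 97.2, 114.7, 108.9 and 90.8 CPM with Tpc. In both genes the groups separate only when DMSO replicate 3 is set aside. ARID1B, a subunit of the BAF chromatin remodelling complex that spans 435 kb, was at 59.5, 64.9, 41.8 and 57.2 CPM with DMSO and at 29.9, 33.6, 37.9 and 26.9 CPM with Tpc. Here the groups did not overlap even with DMSO replicate 3, whose level was the lowest of the DMSO libraries.

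Further long genes fell by similar amounts without DMSO replicate 3. They included PARD3, a scaffold of cell polarity (log2 fold change -0.77, or -0.62 with all 8 libraries), AGAP1, a GTPase-activating protein for Arf (-1.01 or -0.86), and PTK2, the focal adhesion kinase (-0.71 or -0.58). FAF1, a ubiquitin-binding adaptor, had -0.68 or -0.58, and EXT1, a glycosyltransferase of heparan sulfate synthesis, -0.79 or -0.63. EIF4G3, a translation initiation scaffold, was at 0.602 of its DMSO level (0.639 with all 8), and LRBA, a vesicle trafficking protein, at 0.619 (0.648). PRKG1, the cGMP-dependent protein kinase and the longest of the called genes at 1310 kb, was at 26.3, 24.2, 14.8 and 21.4 CPM with DMSO and at 5.97, 12.7, 12.6 and 13.6 CPM with Tpc. No Tpc library reached the lowest DMSO library in PRKG1. Of the 6 genes of at least 500 kb with the highest counts, FAF1, PARD3, PSD3 and ROBO1 passed 0.01 without DMSO replicate 3. ADGRL2 (log2 fold change -0.35, adjusted p = 0.165) and GSE1 (-0.25, adjusted p = 0.227) did not. Over all 155 genes of that span 16 (10.3%) were called lower in that fit, beside 0.246% of all genes tested. With all 8 libraries 0 genes passed. ROBO1, the axon guidance receptor for Slit proteins, spans 1170 kb and was at 108 ± 6.49 CPM in the 3 DMSO libraries and 63.2 ± 5.91 CPM with Tpc (SD, n = 4).

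All 66 lower genes had a lower level in DMSO replicate 3 than in the other 3 DMSO libraries, and in 32 of them that level was within the range of the Tpc libraries. Without it the groups did not overlap in any of the 66, and with it 27 did not overlap. For comparison, 337 of the 12303 genes with a mean of at least 50 counts (2.74%) were lower in every Tpc library than in every DMSO library, and 9.51% were so without DMSO replicate 3. The 66 genes were called without that library, which favours genes in which it lies nearer the Tpc libraries. Their counts follow in part from that choice, and the share of all genes with DMSO replicate 3 lowest was not counted.

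The dependence on span was present over all genes and not only among those called. With 8 libraries the median log2 fold change was 0.01 for the 2278 genes under 10 kb, 0.03 for 5221 genes of 10 to 50 kb and -0.01 for 2230 genes of 50 to 100 kb. It was -0.09 for 1573 genes of 100 to 200 kb, -0.22 for 820 genes of 200 to 500 kb and -0.36 for 155 genes of at least 500 kb. Without DMSO replicate 3 the last of these medians were -0.28 and -0.48. Of the genes of at least 500 kb, 134 (86.5%) were lower with Tpc with all 8 libraries, beside 52% of all 12277 genes, and 88.4% beside 52.4% without DMSO replicate 3. These medians describe the classes and carry no test.

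**Figure D2:**
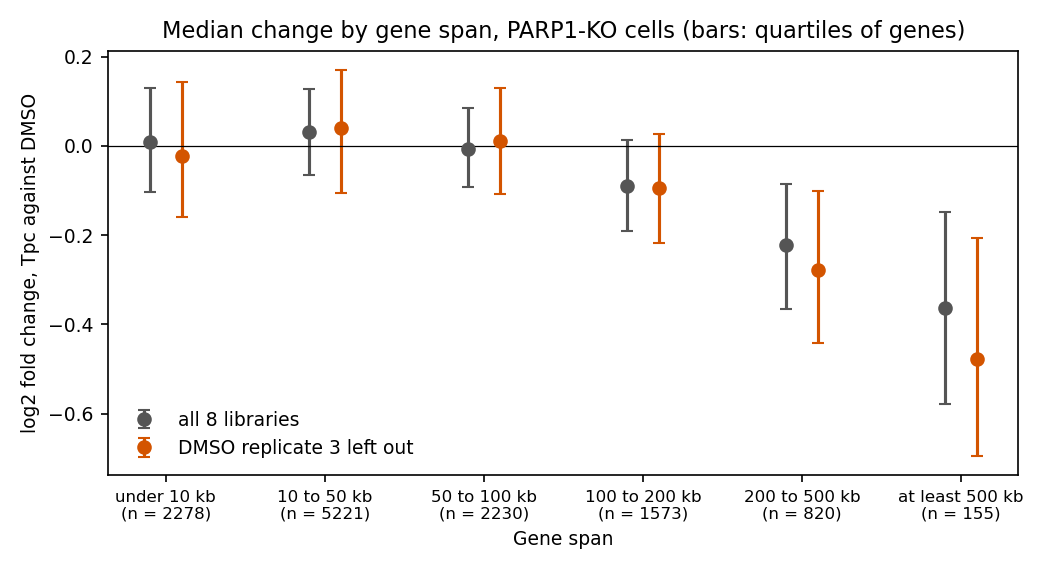
Median log2 fold change of Tpc against DMSO in PARP1-KO cells (vertical axis) by class of gene span (horizontal axis), with bars from the lower to the upper quartile of the genes and n the number of genes. Grey points use all 8 libraries and orange points leave out DMSO replicate 3, and both sets fall from about 0 below 100 kb to -0.36 and -0.48 at 500 kb or more.

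The medians fell with span within classes of exonic length too. The genes were split into 3 classes of equal size by exonic length. In the class of shortest exonic length, at most 4.18 kb, the median with all 8 libraries was 0.01 under 100 kb of span and -0.16 at 200 kb or more. In the class of longest exonic length the same medians were 0.01 and -0.25, or 0.03 and -0.30 without DMSO replicate 3. Spearman's rank correlation across genes was -0.263 between the change and span and -0.131 between the change and exonic length (-0.196 and -0.088 without DMSO replicate 3), given as a description because genes share libraries and are not independent.

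Library by library, the median deviation of the 155 longest genes from their mean over the PARP1-KO libraries was 0.157, 0.179, -0.184 and 0.168 in DMSO replicates 1 to 4, and -0.154 to -0.324 in the Tpc libraries. Untreated libraries and those given OL9-119 alone were all above 0. Of the libraries given Tpc+OL9-119, replicates 1, 2 and 4 were between -0.334 and -0.296 and replicate 3 was at 0.150. The plot by library shows both of the displaced libraries.

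**Figure D3:**
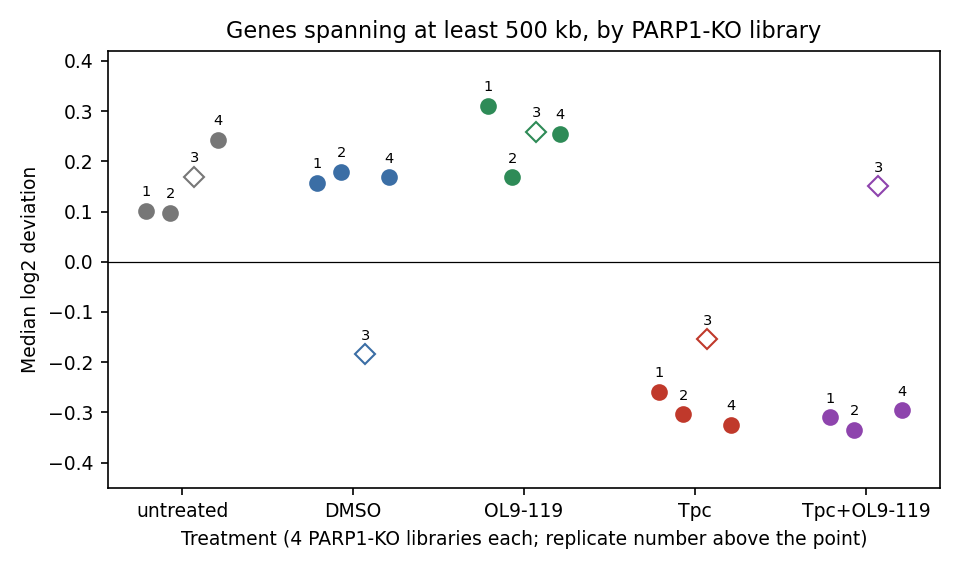
Each point is 1 PARP1-KO library, placed by treatment (horizontal axis) and by the median log2 deviation of its genes of at least 500 kb from their mean (vertical axis), with the replicate number above it and replicate 3 as an open diamond. Libraries without Tpc lie above 0 and those with Tpc below, except DMSO replicate 3 at -0.184 and Tpc+OL9-119 replicate 3 at 0.150.

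The knockout cells had other controls. Against untreated cells, a comparison that shares its 4 Tpc libraries with the one against DMSO, there were 74 DEGs of 27009 (0.274%), 65 lower (0.241% of the genes tested) and 9 higher, and the median of the genes of at least 500 kb was -0.41. Tpc added to OL9-119 uses 8 other libraries. With all of them it gave 0 DEGs, and the median of the longest genes was -0.45. With Tpc+OL9-119 replicate 3 and DMSO replicate 3 left out it gave 261 DEGs of 26678 (0.978%), 245 of them lower (0.918%), and the same median was -0.58. Of the 74 genes called against DMSO, 72 moved in the same direction there and 43 were called. All 66 lower genes were lower there, beside 44.6% of all genes with a mean of at least 50 counts, most of which are shorter. The median there was -0.38 over all genes of at least 200 kb, and the share of these that were lower is not given. With no library left out, 71 of the 74 moved in the same direction and 0 were called. Tpc+OL9-119 replicate 3 was left out with its position known, so the calls made without it are not independent evidence.

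The library names carry a prefix of 1 to 3 whose meaning is not stated in the labels. Prefix 2 holds DMSO replicate 3 with Tpc replicates 2 and 3, and there the median of the longest genes was -0.07, and 39 of 65 lower genes with a span were lower. Within prefixes 1 and 3 the medians were -0.47 and -0.49. These 2 prefixes hold only libraries that the calls were made on, so that the called genes were bound to be lower in them.

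A minority of the lower genes were short. PLK1, the kinase that drives entry into and progress through mitosis, had the smallest p of all genes without DMSO replicate 3. It was at 90.9, 85.7, 43.6 and 94.6 CPM in DMSO replicates 1 to 4 and at 51.55, 49.48, 51.94 and 51.55 CPM with Tpc. DMSO replicate 3 was below all Tpc libraries, and the other DMSO libraries were all above them. The log2 fold change was -0.62 with all libraries (adjusted p = 0.0331) and -0.83 ± 0.106 (SE) without that library (edgeR adjusted p = 6.23e-06). UBE2C, the ubiquitin-conjugating enzyme of the anaphase-promoting complex, was at 87.6, 82.0, 49.1 and 81.2 CPM with DMSO and at 50.1, 65.1, 43.6 and 63.3 CPM with Tpc, a log2 fold change of -0.59 without DMSO replicate 3 (edgeR adjusted p = 0.0065). With all libraries it was -0.43 (adjusted p = 0.342). Between Tpc+OL9-119 and OL9-119, without both displaced libraries, neither gene passed, with log2 fold changes of -0.22 for PLK1 (adjusted p = 0.33) and -0.16 for UBE2C (adjusted p = 0.625).

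The other lower genes under 100 kb were SLC2A3, DDIT4, NDRG1 and ADAMTS1, of which the last 2 were named after their values were seen. SLC2A3 encodes the glucose transporter GLUT3 and was at 596, 509, 332 and 503 CPM with DMSO and at 383, 384, 323 and 307 CPM with Tpc. DDIT4, an inhibitor of mTORC1 signalling induced by stress, was at 252, 210, 179 and 196 CPM with DMSO and at 154, 183, 129 and 156 CPM with Tpc. NDRG1, a stress-responsive gene also induced by hypoxia, fell by 0.69 on the log2 scale without DMSO replicate 3. With all 8 libraries its log2 fold change was -0.51 (adjusted p = 0.159). ADAMTS1, a secreted metalloprotease, fell by 0.35 without that library, and had a log2 fold change of -0.31 with it (adjusted p = 0.0753). The NDRG1 level was 1179, 960, 560 and 905 CPM with DMSO and 608, 822, 521 and 571 CPM with Tpc.

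The 8 higher genes were SRSF6, FOXC1, IFIT5, TAF7, ZNF614, ZNF92, ZNF675 and ZFP82. SRSF6, a serine and arginine rich splicing factor, was at 348, 364, 591 and 374 CPM with DMSO and at 482, 465, 574 and 511 CPM with Tpc. Its log2 fold change was 0.48 ± 0.0854 (SE, edgeR adjusted p = 0.00083) without DMSO replicate 3 and 0.28 (adjusted p = 0.557) with it. FOXC1, a forkhead transcription factor, was at 64.8, 70.95, 101.3 and 70.63 CPM with DMSO and at 114.9, 97.61, 101.2 and 93.94 CPM with Tpc. IFIT5, an interferon-induced RNA-binding protein, was at 46.4, 47.7, 80.9 and 50.0 CPM with DMSO and at 89.3, 58.8, 66.3 and 70.0 CPM with Tpc. In each of the 8 genes DMSO replicate 3 was above the other 3 DMSO libraries, and none of the 8 was free of overlap between the groups with it. Over all genes with a mean of at least 50 counts, 1.49% were higher in every Tpc library than in every DMSO library, and 7.08% were so without DMSO replicate 3. The 8 genes were likewise called without that library, which favours genes in which it lies apart from the other DMSO libraries. TAF7, a subunit of the general factor TFIID, rose by a log2 fold change of 0.41, and the zinc finger genes ZNF614, ZNF92, ZNF675 and ZFP82 by 0.60 to 0.70, without DMSO replicate 3. Libraries also differed along another axis. Tpc replicates 1 and 3 and DMSO replicate 3 were at 3.52 to 4.28 on the second principal component (23.7% of the variance), against -3.55 to -0.393 for the other 5 libraries. They had 18688 to 20724 genes detected at a common depth of 6436740 counts, against 21930 to 23447. ZNF92 was at 147.0, 68.55, 120.0 and 94.3 CPM in Tpc replicates 1 to 4 and at 65.11, 66.65, 127.4 and 67.67 CPM in the DMSO libraries, so that Tpc replicate 2 lay next to the other 3 DMSO libraries. The part of this axis in the higher genes was not tested. Between Tpc+OL9-119 and OL9-119 without both displaced libraries, FOXC1 passed (0.42, adjusted p = 0.00632), SRSF6 did not (0.32, adjusted p = 0.0106), and ZNF614 and ZNF92 were at -0.04 and -0.07 (adjusted p = 0.954 and 0.925).

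**Figure D4:**
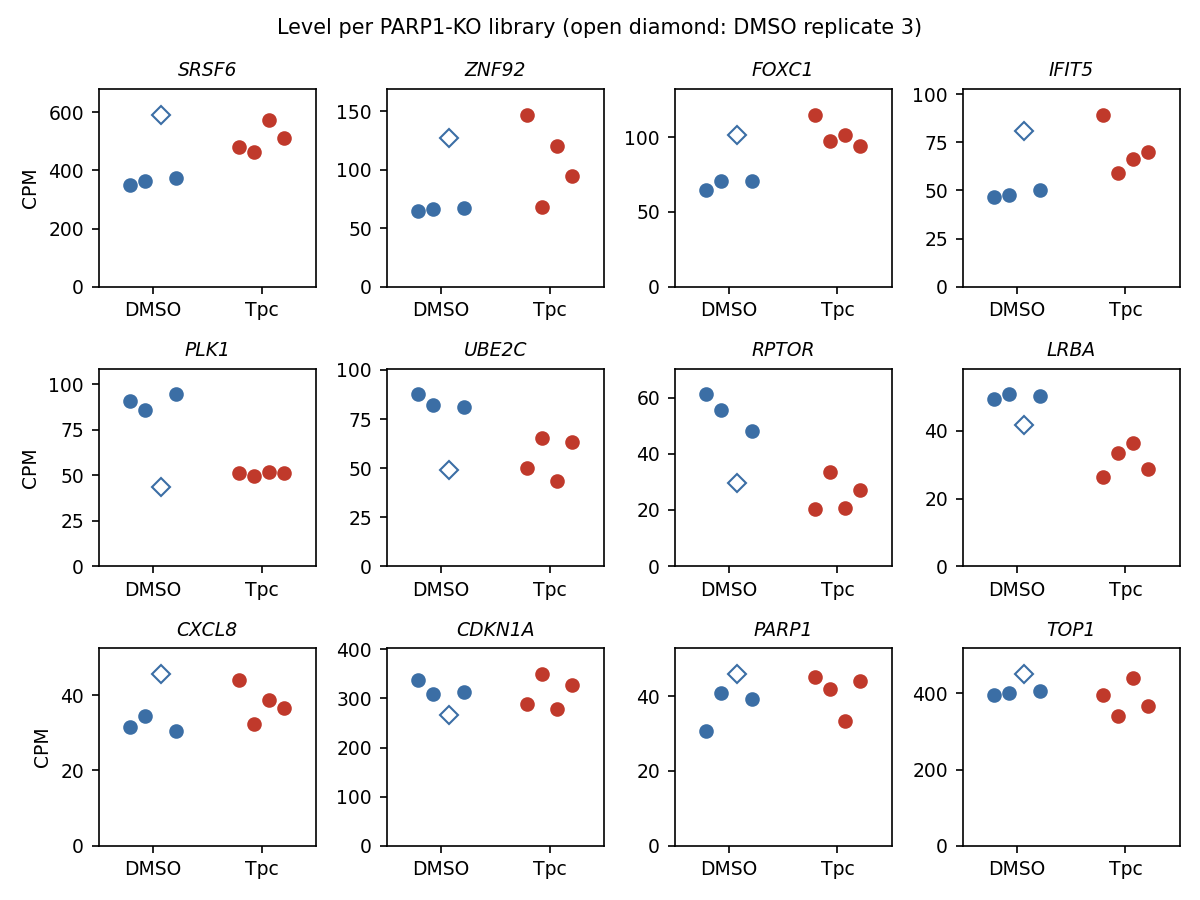
Levels in CPM (vertical axes, from 0) of 12 genes in the 4 DMSO (blue) and 4 Tpc (red) libraries of PARP1-KO cells, 1 point per library in replicate order. The open diamond is DMSO replicate 3, which lies within or beyond the range of the Tpc libraries in SRSF6, ZNF92, PLK1 and UBE2C, while CDKN1A, PARP1 and TOP1 show no separation of the groups.

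Gene lists compiled by hand were then described by their counts and medians, beside a median of -0.01 over all 12303 genes with a mean of at least 50 counts. Of all these genes 51.9% were lower and 48.1% higher with all 8 libraries, and 52.3% and 47.7% without DMSO replicate 3. With 0.246% of all genes called lower and 0.0298% higher, lists of these sizes with 0 called are not distinguished from the rest of the genes. Mitotic genes had the lowest median of the lists. Of 50 G2/M and mitosis genes, 47 were lower with all 8 libraries (median -0.14), and 42 without DMSO replicate 3 (median -0.16), where PLK1 and UBE2C passed 0.01 and 0 were called higher. AURKA, the centrosomal Aurora kinase (log2 fold change -0.53, adjusted p = 0.0156), and KIF20A, a kinesin of the central spindle (-0.44, adjusted p = 0.0186), were just outside the threshold. In bulk RNA, fewer cells in mitosis and less of these transcripts per cell cannot be told apart.

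Promoters of mitotic genes often carry the cell cycle homology region, to which the DREAM and MuvB complexes bind. The letters TTTGAA, on either strand, occur in 28 of the 44 list members with a RefSeq promoter (GRCh38.p14, 250 bases before to 50 after the start) and in 15.4% of all 27305 promoters searched. The 100 bases before the start are shown for the 2 list members among the named genes that have an entry, with the match in capitals.
PLK1: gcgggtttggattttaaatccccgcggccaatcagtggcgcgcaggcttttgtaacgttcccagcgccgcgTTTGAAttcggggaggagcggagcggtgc
KIF20A: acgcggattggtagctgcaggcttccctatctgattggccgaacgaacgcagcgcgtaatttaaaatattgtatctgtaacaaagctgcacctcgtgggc
The PLK1 stretch is chr16:23678789-23678888 on the plus strand and its match begins 29 bases before the start. The KIF20A stretch, chr5:138179012-138179111 on the plus strand, holds none in this window.

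Genes of G1/S and DNA replication leaned the other way, with 32 of 45 higher with all 8 libraries (median 0.09), 33 without DMSO replicate 3 (median 0.11) and 0 called. CDC6, which loads the replicative helicase, was higher by 0.30 on the log2 scale, outside the threshold (adjusted p = 0.045, or 0.423 with all 8 libraries). POLA1, the catalytic subunit of DNA polymerase alpha and itself 303 kb long, was at -0.31 on that scale (adjusted p = 0.0454, or 0.236 with all 8 libraries). Of 16 SR splicing factor genes, 14 were higher in both fits (medians 0.09 and 0.12) and SRSF6 was called. The 13 mitochondrial messenger RNAs had a median of 0.15 with all libraries and 0.14 without DMSO replicate 3, and the 78 cytosolic ribosomal protein genes -0.08 and -0.10, with 0 called in either. RPS10 overlaps RPS10-NUDT3 on the same strand, and reads shared with near-identical copies were not examined, so its value is uncertain.

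Damage and stress lists were read against the 0.276% of all genes called without DMSO replicate 3. Of 29 p53 target genes 0 passed 0.01 in either direction, which at that share is no result about the list. CDKN1A, the p21 inhibitor of cyclin-dependent kinases, was at 337, 309, 266 and 313 CPM with DMSO and at 288, 350, 279 and 327 CPM with Tpc, groups that overlapped throughout. The median of the p53 list was 0.05 with all 8 libraries and 0.09 without DMSO replicate 3. Of 17 NF-kappa B targets and 24 AP-1 and immediate early genes 0 were called, with medians of 0.02 and -0.05 without DMSO replicate 3, and -0.04 and -0.02 with it. EGR1, an immediate early transcription factor, stood at 0.42 on the log2 scale without DMSO replicate 3 (adjusted p = 0.0741, or 0.442 with all 8 libraries). Of 44 homologous recombination, Fanconi and checkpoint genes, FANCC, a Fanconi core complex subunit spanning 328 kb, was called, at 0.653 of its DMSO level. Of 32 ATF4 target genes DDIT4 was called lower. Among 27 topoisomerase and crosslink repair genes and 31 base excision repair genes 0 were called. TOP1, the target of the drug, showed a log2 fold change of -0.06 ± 0.0878 (SE, adjusted p = 0.859), and TDP1 one of -0.37 ± 0.171 (adjusted p = 0.378). SPRTN, the protease of DNA-protein crosslinks, was at 40.9, 41.5, 56.6 and 41.9 CPM with DMSO and at 66.1, 45.7, 57.1 and 54.3 CPM with Tpc. Its adjusted p was 0.557 with all 8 libraries and 0.0872 without DMSO replicate 3. The lists of endoplasmic reticulum chaperones (25 genes), cytosolic heat shock genes (21), oxidative phosphorylation genes (73), proteasome subunits (38), HEK293 markers (8), fibroblast markers (2) and replication-dependent histone genes (7) had 0 called and medians of 0.09, 0.07, -0.06, -0.05, -0.15, -0.12 and -0.09 without DMSO replicate 3. Poly(A) selection limits the last of these.

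Both genotypes were fitted together to test whether the response differed. In that fit 50 of 28922 genes (0.173%) had a different response, 9 higher and 41 lower in PARP1-KO cells, and 43 of 28705 (0.15%) did with both displaced libraries left out. WT cells gave 302 DEGs (1.05%) in the latter fit and PARP1-KO cells 12 (0.0418%). CXCL8, the neutrophil chemokine interleukin 8, rose from 15.3 ± 5.73 to 354 ± 61.9 CPM (SD, n = 4) in WT cells. In PARP1-KO cells it was at 31.5, 34.4, 45.7 and 30.3 CPM with DMSO and at 44.1, 32.3, 38.7 and 36.5 CPM with Tpc. The responses differed by -4.30 on the log2 scale (edgeR adjusted p = 1.01e-18). CCL20, another chemokine, rose in WT cells by 4.28 on that scale and was at -0.02 on it in PARP1-KO cells (adjusted p of the difference 4.91e-12). The median of the G2/M genes was -0.16 in PARP1-KO cells without DMSO replicate 3 and -0.62 in WT cells. For KIF20A the log2 fold changes were -0.44 in PARP1-KO cells, where it was not called, and -1.72 in WT cells, and the difference passed (adjusted p = 9.21e-05). For PLK1 they were -0.83 and -1.67, and the difference did not pass (0.84, adjusted p = 0.0911).

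Of the 975 genes of at least 200 kb, 2 had a response that differed between the genotypes in edgeR's test, with both displaced libraries left out. Over all genes 43 of 28705 (0.15%) differed, so this count does not set long genes apart. The 2 long genes were CREB5, a transcription factor of the CREB family (log2 fold change -0.34 in PARP1-KO and 1.25 in WT cells, adjusted p of the difference 1.58e-05), and NEDD4L, a ubiquitin ligase (-0.42 and 0.41, adjusted p 0.0083), both named after their values were seen. Of the 74 DEGs 0 had a difference that passed 0.01, beside 0.15% of all genes, which does not show that they respond alike. Of the 66 lower genes 60 were also lower in WT cells, but the share of all genes lower there is not given. The median WT change was 0.02 over all genes with a span and -0.19 over genes of at least 200 kb. In WT cells 10 of the 66 were called lower, beside 0.38% of all genes, most of which are shorter. Among long genes, 19 of 820 of 200 to 500 kb and 7 of 155 of at least 500 kb were called lower in WT cells. These 2 counts come from the fit of all 40 libraries, and the 0.38% from the fit without both displaced libraries. With all 40 libraries the median of the genes of at least 500 kb was -0.35 in PARP1-KO and -0.47 in WT cells. With both displaced libraries, which are PARP1-KO libraries, left out, this median was -0.48 and -0.46. In the latter fit the median was -0.28 and -0.17 for genes of 200 to 500 kb, and -0.10 and 0.01 for genes of 100 to 200 kb. These differences between medians carry no test. In WT cells the level per library of the genes of at least 500 kb was -0.385 to -0.163 with Tpc. It was 0.069, 0.321, -0.396 and 0.382 in WT DMSO replicates 1 to 4. The groups thus overlapped through WT DMSO replicate 3, and the other WT DMSO libraries lay above every WT Tpc library. No WT library was left out of any fit that held both genotypes. In RPTOR the log2 fold changes were -1.11 and -0.47, with a difference of -0.64 (adjusted p = 0.537).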

How the data were processed

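RNA sequencing libraries of poly(A) RNA were described above. The authors aligned 100 base paired reads to hg38 with STAR and counted them per gene, and deposited the raw counts, with neither pooling nor scaling. The submitters' processing notes name STAR 2.7.8, FastQC 0.11.9 and Picard 2.26.6. The strand setting of the counting is not given in the sources used here, so reads of genes that overlap on the opposite strand (for example PLK1, RPTOR, TTC28 and KIF20A) may not be told apart. Spans came from GENCODE 44, the same genome build, which matched 57754 of 58395 genes, and 3 list genes were not matched.

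Genes whose counts summed to 10 or more in the fitted libraries were tested with edgeR 4.0.16 in R 4.3.3 (TMM, quasi-likelihood F-test, legacy option on, 1 group per treatment). The 20 PARP1-KO libraries were fitted together, or 19 without DMSO replicate 3. The study's methods use DESeq2, which was an alternative here (version 1.42.0). The threshold was an adjusted p of 0.01 after Benjamini and Hochberg, and SE is the log2 fold change divided by the square root of F. CPM of PARP1-KO libraries came from the fit of 20 libraries, and CPM of WT libraries from a fit of both genotypes, so their TMM scaling differs. Counting error is small at the higher levels named. It is larger where counts are low, such as 68 for PRKG1 and 54 for TMEM117 in Tpc replicate 1. The DREAM and drug biology named is background. Named genes were the drug and knockout targets, 4 long genes and 6 genes named by an earlier analysis, up to 10 genes of the smallest p per direction and fit without overlap of the groups, up to 2 per list and fit, and the 6 most counted genes of at least 500 kb. The comparison, the lists and this rule were chosen with earlier results of these data known. The procedure was tested on simulated data that held no displaced library, unlike the real data. In the fit of all 20 libraries, 91 of 100 genes changed by 1 on the log2 scale were called. Of 100 genes changed by 0.5, 39 were called, and 3 unchanged genes were called, so many changes of the smaller size would be missed. All columns used matched a sample by name and 0 columns of other samples were present.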

Additional observations from a re-analysis of the deposited data

Results flagged for a closer look

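Of 188 groups of 4 libraries examined, the DMSO and the Tpc libraries for each of 94 genes, 20 (10.6%) held 1 library far from the other 3 by Dixon's criterion, where chance gives about 1 in 20. Many of the 94 genes were named from the fit without DMSO replicate 3, which favours genes in which that library lies apart, so this share cannot be read against that rate. In 17 of the 20 the library was DMSO replicate 3, in 2 it was Tpc replicate 1 and in 1 Tpc replicate 2.

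DMSO replicate 3 was above the other DMSO libraries in C5orf24 (172 CPM, others 108 to 113), CHORDC1 (186, others 134 to 139), FOXC1 (101.3, others 64.8 to 70.95), IFIT5 (80.9, others 46.4 to 50.0), PCNA (713, others 582 to 601), SPRTN (56.6, others 40.9 to 41.9), SRSF6 (591, others 348 to 374), TAF7 (379.7, others 273.9 to 287.5), TIGAR (88.8, others 62.0 to 65.8), ZNF675 (63.8, others 31.0 to 35.8) and ZNF92 (127.4, others 65.1 to 67.7). It was below them in AURKA (70.4 CPM, others 89.7 to 93.5), KIF20A (83.2, others 109 to 111), LRBA (41.8, others 49.4 to 50.8), SLC7A1 (207, others 235 to 236), TMEM117 (10.3, others 13.3 to 13.9) and UBE2C (49.1, others 81.2 to 87.6). Among the Tpc libraries, replicate 1 stood out in PRKG1 (5.97 CPM, others 12.6 to 13.6) and RPS10 (13.1, others 4.77 to 6.17), and replicate 2 in PLK1 (49.48, others 51.55 to 51.94).

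The response to Tpc, tested as an interaction over all 40 libraries with edgeR, was lower in PARP1-KO than in WT cells for CXCL8 (log2 difference -4.42, adjusted p = 3.79e-20), CCL20 (-4.40, adjusted p = 4.12e-13), GADD45A (-1.26, adjusted p = 2.54e-05) and SLC7A1 (-1.04, adjusted p = 0.00166), and higher for KIF20A (1.39, adjusted p = 9.5e-06). The genotypes received different doses, so genotype and dose cannot be told apart.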

How the results depend on the processing

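With all 8 libraries the count of 0 DEGs stayed at 0 with the legacy option of edgeR off, RLE normalization, the libraries of both groups alone or both genotypes fitted together. It became 2 with DESeq2, 10 with DESeq2 on both groups alone, 47 without a filter on summed counts, 7 with the library name prefix as a term, 23 at 0.05, 74 against untreated cells, 71 against untreated and DMSO cells averaged, and, chosen after seeing the data, 29 with Tpc+OL9-119 replicate 3 out of the fit. Leaving out 1 library gave 0 to 74. Without DMSO replicate 3, the 74 DEGs (8 higher, 66 lower) became 181 with DESeq2 (65 higher), 189 with DESeq2 on both groups alone (52 higher), 43 with the legacy option off, 36 with both groups alone, 0 with both genotypes fitted, 194 without a filter (44 higher, 150 lower), 30 with filterByExpr, 153 with the prefix term, 231 at 0.05, and, chosen after seeing the data, 132 with Tpc+OL9-119 replicate 3 out and 167 against untreated cells. In its place, Tpc+OL9-119 against OL9-119 gave 0, or 261 without Tpc+OL9-119 replicate 3. Leaving out 1 further library gave 15 to 235: 21, 15 and 24 without DMSO replicates 1, 2 and 4, and 38, 235, 41 and 41 without Tpc replicates 1 to 4. The causes were not tested. All 31 called genes among those named kept their direction under the 20 settings tried. They were chosen from these same libraries, so a kept direction is little evidence. All 31 missed the threshold with DMSO replicate 3 kept, and all 31 missed it with both genotypes fitted together.

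The replicate number as a block gave 41 DEGs (all lower) with all 8 libraries, 322 (51 higher, 271 lower) without DMSO replicate 3 and 51 differences between the genotypes. Deviations of same-numbered libraries correlated from -0.122 to 0.395, and 2 of 4 Tpc libraries correlated best with their own number, so the numbers were not taken as pairs.

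For genes of at least 500 kb the median was -0.363, with -0.477 to -0.338 when 1 library was left out, and -0.577 for Tpc+OL9-119 against OL9-119 without both displaced libraries. For 200 to 500 kb it was -0.221, with -0.277 to -0.209, -0.359 in that comparison and -0.315 within prefix 3, and within prefix 2 the 2 medians were -0.068 and -0.096. For genes under 100 kb it was 0.017 (0.013 to 0.020 with 1 library left out), 0.027 with RLE, 0.000 without the filter on mean counts, and 0.050 and 0.078 for Tpc+OL9-119 against OL9-119 with and without those libraries. Against untreated cells the G1/S, NF-kappa B, oxidative phosphorylation and proteasome lists had medians of 0.135, 0.057, -0.110 and -0.076. With 1 library left out, G2/M genes had -0.191 to -0.089. The difference between the genotypes had 50 genes, 88 with DESeq2 and 41 without DMSO replicate 3.

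Uncalled genes changed sign as follows. CCL20 had 0.00 with DESeq2 in both forms and with RLE, 0.06 with the prefix term, 0.07 against untreated cells, and -0.15 to 0.10 with 1 library out. CDKN1A had 0.02 with DMSO replicate 3 and -0.10 to 0.01 with 1 library out, TOP1 -0.13 to 0.00 with 1 library out, and HSPA8 and PSME3 -0.03 against untreated cells.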
